A study of Mus musculus with 12 samples.

Results

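Cholesterol genes were examined in tail tip fibroblasts, connective tissue cells grown out of the tails of newborn mice, that differed in Hotair genotype. The genes, and the related lists below, were chosen by name with earlier results of these data known. The genes were 28 symbols of the synthesis pathway, its control by sterol regulatory element binding proteins (SREBPs), and sterol uptake, transport and storage. A row was found for 27 of them among the 24132 gene rows of the table, and Hmgcs1, the synthase that makes the precursor of mevalonate, was not analysed here. Polyadenylated RNA was sequenced from Hotair wildtype, Hotair heterozygous and Hotair knockout cells, all on a background backcrossed to C57BL6, with 2 libraries for each genotype. Hotair is a long noncoding RNA of the HoxC cluster. The labels name neither the design of the disrupted allele nor separate animals or cultures, so the p-values below reflect no more than how far these libraries differ within a genotype, and that difference may be technical. For a typical gene, the squared difference between replicates was 0.813, 0.876 and 0.873 times that of counting noise in wild type, heterozygous and knockout cells, so typical genes differed by no more than this upper estimate of counting noise.

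Cells make cholesterol from acetyl-CoA by way of mevalonate, isoprenoids, squalene and lanosterol. When the endoplasmic reticulum is rich in sterols, INSIG proteins hold the SCAP-SREBP complex there; when sterols fall, the complex moves to the Golgi, where proteases release the active factor, which raises transcription of nearly every enzyme of the pathway. Liver X receptors (LXRs) respond to oxysterols in the opposite sense and raise sterol export through ABCA1. Fibroblasts are the cells in which much of this feedback, including the control of sterol uptake, was worked out.

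Values are RPKM, read density scaled to gene length and to the number of aligned reads, so that the reads behind 1 RPKM give the depth of a library. In a stretch of 1 kilobase, 1 RPKM stood for 29.6 and 27.9 reads in wild type, 33.2 and 31.2 in heterozygous and 48.1 and 46.0 in knockout libraries. Depth thus rose with the number of disrupted alleles, and how far this enters the values was not tested. Hotair was at 0.247 and 0.183 RPKM in wild type, at 0.213 and 0.172 RPKM in heterozygous cells and at 0 in both knockout libraries. Summed over 8 keratinocyte markers, levels lay between 0.764 and 1.05 RPKM, and Cdh1 of this list did not exceed 0.0195 RPKM. For 2 of these 8, both knockout libraries exceeded both wild-type ones. Summed over 10 fibroblast markers, levels lay between 5498 and 5916 RPKM in all 6 libraries. Single markers shifted in both directions within the fibroblast sum. Thy1 was at 193 and 188 RPKM in wild type, 124 and 124 in heterozygous and 94.0 and 95.6 in knockout libraries. Dcn was at 11.8 and 13.3, 20.8 and 20.4, and 29.6 and 26.8 RPKM in the same order. For 4 of the 10, both knockout libraries exceeded both wild-type ones. Libraries of knockout cells stood apart in macrophage markers, with a sum over 18 genes of 57.3 to 57.5 RPKM against 9.60 to 10.98 in wild type and 7.95 to 8.79 in heterozygous cells. For 17 of these 18 genes, both knockout libraries exceeded both wild-type ones. The share of all genes that did so was not counted, for this or any other marker list. Osteoclast markers (8 genes) summed to 51.2 to 51.5 RPKM in knockout, 22.0 to 22.2 in wild type and 14.4 to 16.8 in heterozygous cells. For 7 of these 8, both knockout libraries exceeded both wild-type ones. Ctsk, most of the wild-type sum, fell from 19.3 and 19.2 RPKM in wild type to 11.4 and 10.6 in knockout. Schwann cell markers (6 genes) summed to 14.5 to 15.2, 25.7 to 25.8 and 31.0 to 31.7 RPKM in the order of the osteoclast sums. Ngfr, most of the Schwann cell sum, fell from 21.0 and 20.1 RPKM in wild type to 10.9 and 11.2 in knockout. For 2 of these 6, both knockout libraries exceeded both wild-type ones. The macrophage marker Ptprc did not exceed 0.0683 RPKM in any library, while Lyz2 reached 23.8 RPKM in knockout.

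SREBPs bind weakly alone and act beside NF-Y, a factor that binds the sequence CCAAT, so promoters are shown first. RefSeq promoters (build GRCm38.p6) were found for 22 of the 27 members, and none was matched for Fdps, Fdft1, Sqle, Stard4 and Npc1. In the 250 bases before each start, on both strands, CCAAT was found for 13 of 14 synthesis members and for 19 of the 22 members. The same 5 letters were found in 33.8% of all 32851 promoters and for 40.2% of the 7941 tested genes that have a promoter there. A gene with several starts was counted when any of them held the letters. The sterol regulatory element written as TCACNCCAC was found for 0 of 22 members (1.05% of all promoters, 1.22% of the tested genes with a promoter). Its shorter form TCACNCCA, which every match of the longer form also holds, was found for Srebf2 alone (3.67% of all promoters, 3.97% of those tested genes). These matches describe letters in a window and not binding.

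Shown are the 3 synthesis members with the largest falls in knockout among those with CCAAT, the synthesis member that rose, and Srebf2, a choice made after the motif counts were seen. Each is the 250 bases before a start whose window held a match, 5′ to 3′ on the strand of the gene. Capitals mark CCAAT or its reverse complement ATTGG and, in Srebf2, TCACCCCA.

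Dhcr7 (chr7:143829964-143830213, plus strand): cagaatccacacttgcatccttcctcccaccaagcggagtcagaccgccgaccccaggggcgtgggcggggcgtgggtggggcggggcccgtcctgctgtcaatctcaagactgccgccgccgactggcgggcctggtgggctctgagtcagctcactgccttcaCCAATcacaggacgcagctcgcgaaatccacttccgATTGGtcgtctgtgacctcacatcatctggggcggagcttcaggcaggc

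Nsdhl (chrX:72918271-72918520, plus strand): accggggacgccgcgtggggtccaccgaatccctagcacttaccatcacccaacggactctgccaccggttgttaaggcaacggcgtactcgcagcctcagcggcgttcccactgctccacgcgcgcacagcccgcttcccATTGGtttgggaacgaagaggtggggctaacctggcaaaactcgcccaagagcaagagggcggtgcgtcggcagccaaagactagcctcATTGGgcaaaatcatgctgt

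Tm7sf2 (chr19:6067851-6068100, minus strand): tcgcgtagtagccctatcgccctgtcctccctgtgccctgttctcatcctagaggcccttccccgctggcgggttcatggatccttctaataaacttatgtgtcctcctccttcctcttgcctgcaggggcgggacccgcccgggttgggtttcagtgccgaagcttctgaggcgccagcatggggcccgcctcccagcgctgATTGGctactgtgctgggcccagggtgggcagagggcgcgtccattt

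Idi1 (chr13:8885356-8885605, plus strand): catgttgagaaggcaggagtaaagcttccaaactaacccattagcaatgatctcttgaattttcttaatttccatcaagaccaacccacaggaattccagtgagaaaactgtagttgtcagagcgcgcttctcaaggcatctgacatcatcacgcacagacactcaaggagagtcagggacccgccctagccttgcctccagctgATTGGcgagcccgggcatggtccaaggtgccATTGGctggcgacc

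Srebf2 (chr15:82147019-82147268, plus strand): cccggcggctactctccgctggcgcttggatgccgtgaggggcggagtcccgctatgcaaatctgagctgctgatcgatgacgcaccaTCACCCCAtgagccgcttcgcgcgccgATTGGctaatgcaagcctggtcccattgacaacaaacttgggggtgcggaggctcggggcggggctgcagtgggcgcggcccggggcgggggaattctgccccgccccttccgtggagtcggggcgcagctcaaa

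Idi1, which rose in knockout, held 2 such boxes, at 45 and 14 bases before its start. Dhcr7, which fell, held 2 at 85 and 49 bases before the start shown. The windows of its other starts (chr7:143822917-143823166 and chr7:143823149-143823398) held 0. In Nsdhl they lay at 109 and 20 bases and in Tm7sf2 the 1 box lay at 47 bases. The members shown were picked for holding a box, so they say nothing of members without one, such as Acat2 and Abca1.

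Across the members, most enzymes of the pathway were lower in cells with a disrupted Hotair copy. The 5 members of sterol transport and esterification were mixed. Abca1, a sterol exporter, Soat1, which stores sterol as esters, and Npc1 were higher in both comparisons with wild type. Npc2 was lower in both, and Stard4 was called lower in heterozygous cells. The knockout calls of Soat1 and Npc1 were lost after median scaling. Of 27 members tested, 16 fell and 5 rose in knockout against wild type, and 20 fell and 3 rose in heterozygous against wild type (limma with Benjamini-Hochberg adjustment over 10897 genes, adjusted p below 0.05). Both comparisons use the same wild-type libraries. Over all genes tested, 67.2% were called in knockout against wild type, 40.6% higher and 26.6% lower. In heterozygous against wild type 52.6% were called, 35.5% higher and 17.1% lower. Among the members, 59.3% fell in knockout and 74.1% in heterozygous cells. The median log2 difference of the members was -0.26 in knockout and -0.28 in heterozygous cells, beside 0.06 and 0.07 over all genes tested. No member changed by 2-fold on the log2(RPKM + 1) scale in either comparison.

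All 27 members passed the filter of 1 RPKM in 2 libraries, and 26 would have passed on the wild-type libraries alone. Abca1 was the exception, below 1 RPKM in both wild-type libraries. Each member rested on at least 71.1 read equivalents in every library. These are lower limits, and the lowest limit was that of Abca1 in wild type. The typical SD between replicates was 2.64% of the mean, the median over members and genotypes.

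The balance of higher and lower calls over all genes depended on scaling. In knockout against wild type, 60.4% of calls were higher; this share was 46.7% with quantile-normalized values and 47.7% with values scaled to a common median. In heterozygous against wild type the shares were 67.5%, 51.1% and 46.5% in the same order. In knockout the members split into 4 higher and 17 lower with the former and 3 higher and 19 lower with the latter, and in heterozygous cells into 3 higher and 20 lower with both.

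**Figure D1:**
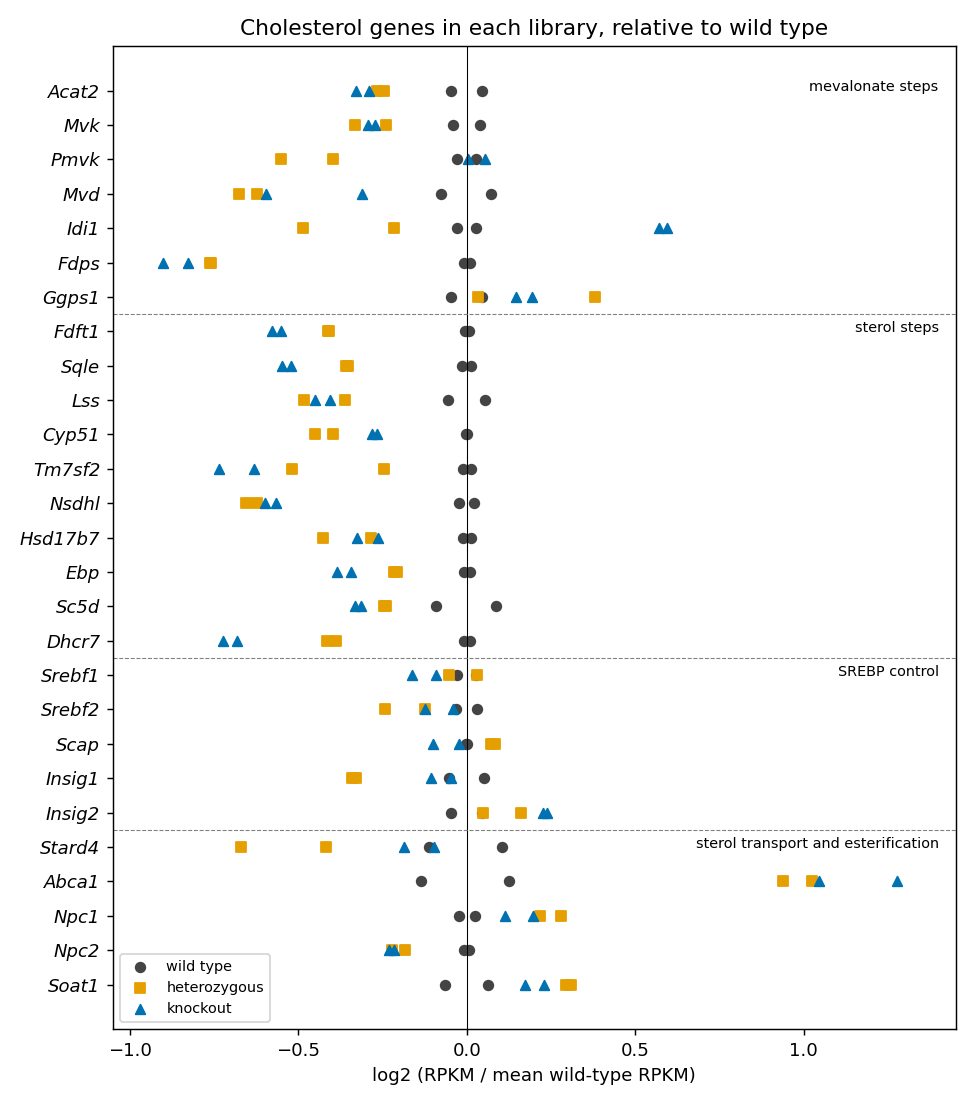
RPKM of the 27 members in each of the 6 libraries, as log2 of the ratio to the mean of the wild-type libraries, in pathway order. Circles are wild type, squares heterozygous and triangles knockout. All heterozygous and knockout points of the 10 sterol steps lie left of the wild-type points, and those of Abca1 lie farthest right.

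In the mevalonate steps, 4 of 7 members fell and 1 rose in knockout (57.1% and 14.3%, beside 26.6% and 40.6% over all genes tested). In heterozygous cells 6 of 7 fell and 0 rose (85.7% and 0%, beside 17.1% and 35.5%). Fdps, which makes farnesyl diphosphate, the branch point to sterols and prenyl groups, was the most abundant enzyme of the set. It stood at 62.1 and 61.4 RPKM in wild type, 36.5 and 36.4 in heterozygous and 34.8 and 33.0 in knockout cells. Every library with a disrupted copy was far below both wild-type libraries, and the knockout libraries lay below the heterozygous ones. The log2 difference was -0.85 ± 0.03 (SE) in knockout (adjusted p = 7.45e-07) and -0.74 ± 0.03 in heterozygous cells (adjusted p = 2.88e-06, both limma).

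Idi1, the isomerase that makes dimethylallyl diphosphate, went against its neighbours. Its libraries stood at 4.71 and 4.54 RPKM in wild type, 3.98 and 3.30 in heterozygous and 6.98 and 6.87 in knockout cells. The 3 genotypes did not overlap, and heterozygous and knockout lay on opposite sides of wild type. Idi1 rose by 0.49 ± 0.07 in knockout (limma adjusted p = 0.000530) and fell in heterozygous cells, with a log2 difference of -0.28 ± 0.07 (limma adjusted p = 0.0121). The latter call was lost without the first wild-type library (-0.26, limma adjusted p = 0.0584) and was -0.17 without the second heterozygous library. Between knockout and heterozygous the difference was 0.78 ± 0.07 (limma adjusted p = 0.000136).

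Pmvk, the kinase that adds the next phosphate to phosphomevalonate, followed a similar order at a low level. It was at 4.43 and 4.26 RPKM in wild type, 2.97 and 3.30 in heterozygous and 4.51 and 4.36 in knockout cells. Heterozygous libraries were lowest and the other genotypes overlapped. Its log2 difference was -0.37 ± 0.05 in heterozygous (limma adjusted p = 0.00114) and 0.02 ± 0.05 in knockout cells (limma adjusted p = 0.722).

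Mvd, the decarboxylase that yields isopentenyl diphosphate, was at 12.8 and 14.2 RPKM in wild type, 8.76 and 8.44 in heterozygous and 10.9 and 8.92 in knockout cells. It fell in both, by 0.41 in knockout and by 0.59 in heterozygous cells on the log2 scale, and its knockout libraries were unusually far apart. Mvk, mevalonate kinase, fell from 18.9 ± 0.728 RPKM (SD, n = 2) to 15.5 ± 0.701 in heterozygous and 15.5 ± 0.152 in knockout cells. Acat2, the cytosolic thiolase that starts the pathway, fell from 23.1 ± 1.07 RPKM to 19.4 ± 0.198 and 18.7 ± 0.355. Reads of Acat2 and its close mouse paralog Acat3 may be split between the rows, so its value is uncertain. Ggps1, which makes geranylgeranyl diphosphate for protein prenylation outside the sterol branch, was at 3.10 ± 0.140, 3.60 ± 0.609 and 3.49 ± 0.0839 RPKM from wild type through heterozygous to knockout and was called in neither comparison (limma adjusted p = 0.153 and 0.211), but became a call in heterozygous cells without the first heterozygous library (0.30, limma adjusted p = 0.0102).

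**Figure D2:**
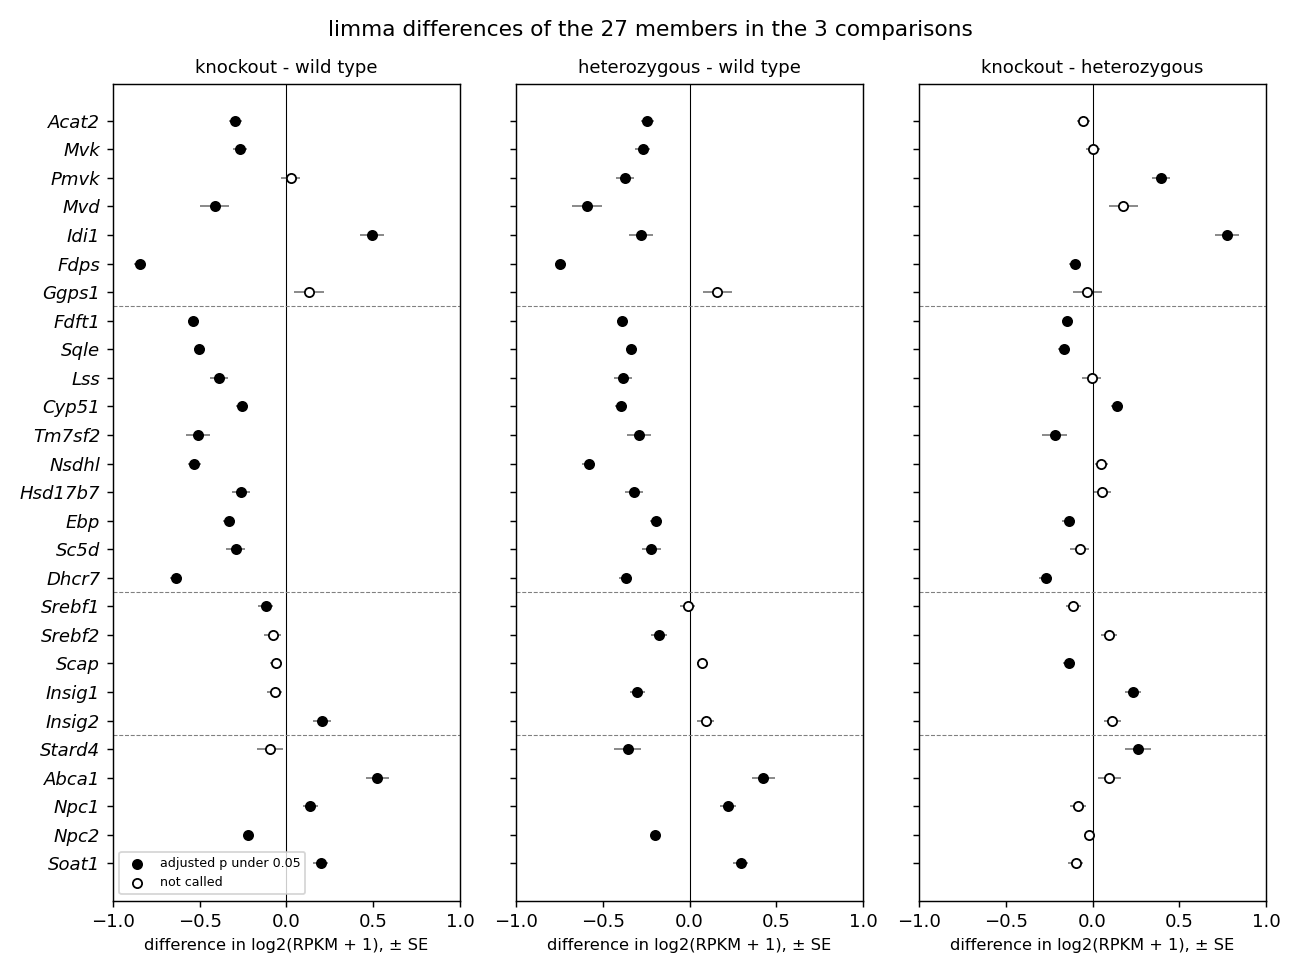
Differences in log2(RPKM + 1) for each member with the SE of the model, in the 3 comparisons. Filled points passed the adjusted threshold of 0.05. All 10 sterol steps are filled and left of 0 in the comparisons with wild type, while 5 of them are filled to the left and 1 to the right in knockout against heterozygous.

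All 10 enzymes of the sterol steps, from squalene synthase to the last reductases, fell in knockout, by RPKM changes between -38.6% and -17.3%. All 10 also fell in heterozygous cells, with changes between -35.8% and -13.6%. Over all genes tested, 26.6% were called lower in knockout and 17.1% in heterozygous cells. Wild-type libraries lay above all 4 other libraries for each of the 10. Among the 27 members, 18 were lower and 6 higher without overlap in knockout against wild type. The share of all genes separated in either way was not counted, so these counts show nothing particular to the members. The median log2 difference of the 10 sterol steps was -0.44 in knockout and -0.35 in heterozygous cells.

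Dhcr7, the reductase that forms cholesterol from 7-dehydrocholesterol, had the largest fall of this arm in knockout. It stood at 12.2 and 12.4 RPKM in wild type, 9.38 and 9.22 in heterozygous and 7.65 and 7.44 in knockout cells. The genotypes formed 3 separate levels in descending order. Differences were -0.64 ± 0.04 in knockout, -0.37 ± 0.04 in heterozygous and -0.27 ± 0.04 between knockout and heterozygous (limma adjusted p = 5.89e-06, 0.000187 and 0.000809).

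Sqle, squalene epoxidase, a control point of the pathway, showed the same descending order. It was at 18.5 and 18.9 RPKM in wild type, 14.6 and 14.6 in heterozygous and 12.8 and 13.0 in knockout cells. Fdft1, squalene synthase, which commits farnesyl diphosphate to sterols, was at 22.8 and 23.0, 17.2 and 17.2, and 15.6 and 15.3 RPKM. Both were lower in knockout than in heterozygous cells, Sqle by -0.17 ± 0.03 and Fdft1 by -0.15 ± 0.03 (limma adjusted p = 0.00403 and 0.00576). Ebp, the isomerase that shifts the double bond of the sterol ring, fell from 11.1 and 10.9 RPKM to 9.48 and 9.54 in heterozygous and 8.68 and 8.43 in knockout cells. Tm7sf2, a sterol C14 reductase, fell from 3.73 ± 0.0461 to 2.87 ± 0.381 and 2.32 ± 0.118 RPKM, and its heterozygous call was lost without the first wild-type library (-0.28, limma adjusted p = 0.0507) and was -0.19 without the second heterozygous library.

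Nsdhl and Cyp51, which act on the methyl groups of lanosterol and its products, did not descend in this way. Nsdhl was at 12.8 and 12.4 RPKM in wild type, 7.98 and 8.16 in heterozygous and 8.48 and 8.30 in knockout cells, so that both other genotypes lay at about the same level. Its log2 difference from wild type was -0.53 ± 0.04 in knockout and -0.58 ± 0.04 in heterozygous cells. Cyp51, lanosterol demethylase, was at 14.8 and 14.8 RPKM in wild type, 11.2 and 10.8 in heterozygous and 12.2 and 12.3 in knockout cells. It was lowest in heterozygous cells, with a difference of 0.14 ± 0.03 between knockout and heterozygous (limma adjusted p = 0.0130).

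The remaining sterol enzymes did not pass the test between knockout and heterozygous cells. Lss, which closes squalene epoxide into lanosterol, averaged 11.1 ± 0.587 RPKM in wild type, 8.32 ± 0.496 in heterozygous and 8.28 ± 0.187 in knockout cells. Hsd17b7, a ketosteroid reductase of the demethylation steps, averaged 9.61 ± 0.111, 7.52 ± 0.528 and 7.84 ± 0.242 RPKM in the same order. Sc5d, a sterol desaturase, averaged 12.2 ± 1.05, 10.3 ± 0.0348 and 9.72 ± 0.0783 RPKM, and its heterozygous difference of -0.22 was -0.14 without the first wild-type library. Spans of Fdft1 and Ctsb, Tm7sf2 and Vps51, Lss and 4930483K19Rik, Srebf1 and Rai1, and Npc1 and Rmc1 overlap in RefSeq. With strand use in counting not stated, reads from the shared stretches cannot be told apart. Ctsb, at 157.1 RPKM in wild type, was far above Fdft1.

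**Figure D3:**
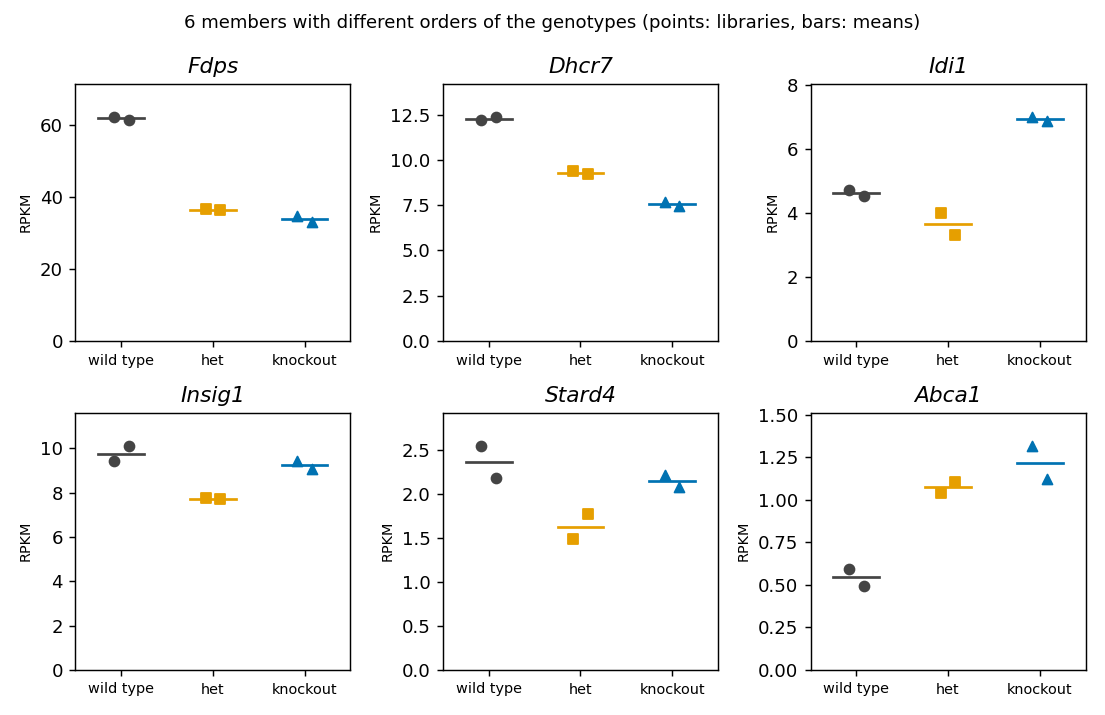
RPKM of 6 members in each library, with bars at the mean of each genotype and axes from 0. Fdps and Dhcr7 descend from wild type to knockout, Idi1, Insig1 and Stard4 are lowest in heterozygous cells, and Abca1 is lowest in wild type.

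Of the 5 control genes, 1 rose and 1 fell in knockout (20% and 20%, beside 40.6% and 26.6% over all genes tested). In heterozygous cells 0 rose and 2 fell (0% and 40%, beside 35.5% and 17.1%). Srebf2, which encodes the SREBP with the broadest action on cholesterol genes, was at 25.5 and 26.6 RPKM in wild type, 22.0 and 23.9 in heterozygous and 23.9 and 25.3 in knockout cells. Knockout libraries lay just below the wild-type ones. Its log2 difference was -0.08 ± 0.05 in knockout (limma adjusted p = 0.179) and -0.18 ± 0.05 in heterozygous cells (limma adjusted p = 0.0191). The knockout value became a call after median scaling (-0.17, limma adjusted p = 0.0118). The heterozygous call was lost without the second wild-type library (-0.15), without the first heterozygous library (-0.12) and without a filter on low values.

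Srebf1, whose products act more on fatty acid genes, was at 16.4 and 15.8 RPKM in wild type, 15.5 and 16.4 in heterozygous and 14.3 and 15.1 in knockout cells. The call in knockout (-0.12 ± 0.04, limma adjusted p = 0.0403) was lost in 6 of 13 alternative fits, among them those without either wild-type library or without the first knockout library (-0.09 to -0.15), and the value was -0.21 after median scaling. In heterozygous cells it was not called (-0.01 ± 0.04, limma adjusted p = 0.870). Scap, the sterol sensor that escorts SREBPs, averaged 22.3 ± 0.0372 RPKM in wild type, 23.6 ± 0.150 in heterozygous and 21.4 ± 0.796 in knockout cells. It differed only between knockout and heterozygous cells, by -0.13 ± 0.03 (limma adjusted p = 0.0136), among the 3 comparisons run, and this call was lost with quantile values (-0.09, limma adjusted p = 0.0733). Median scaling gave a call against wild type in knockout (-0.15).

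Insig1, the retention factor that is itself an SREBP target, was at 9.41 and 10.1 RPKM in wild type, 7.76 and 7.70 in heterozygous and 9.45 and 9.07 in knockout cells. Knockout and wild-type libraries overlapped, and both lay above heterozygous. It fell in heterozygous cells by 0.30 (SE 0.04, limma adjusted p = 0.00129), and its difference in knockout was -0.07 ± 0.04 (limma adjusted p = 0.212; -0.15 and called after median scaling). Insig2, the second retention factor, rose in knockout from 6.73 ± 0.303 to 7.90 ± 0.0430 RPKM (0.20 ± 0.05, limma adjusted p = 0.00766; 0.13 with quantile values and 0.12 with median scaling). In heterozygous cells it stood at 7.24 ± 0.396 RPKM and was not called (limma adjusted p = 0.153).

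Of the 5 genes of sterol transport and esterification, 3 were higher and 1 lower in knockout (60% and 20%, beside 40.6% and 26.6% over all genes tested). In heterozygous cells 3 were higher and 2 lower (60% and 40%, beside 35.5% and 17.1%). The knockout count depended on scaling, with 2 higher and 2 lower for quantile values and 1 higher (Abca1) and 1 lower for median scaling. Abca1, the LXR target that exports cholesterol to apolipoproteins, was at 0.593 and 0.494 RPKM in wild type, 1.04 and 1.11 in heterozygous and 1.32 and 1.12 in knockout cells. All libraries with a disrupted copy lay above both wild-type libraries. The RPKM ratio to wild type was 2.24 in knockout and 1.97 in heterozygous cells. On the log2(RPKM + 1) scale, which understates changes of low genes, the differences were 0.52 ± 0.07 and 0.43 ± 0.07 (limma adjusted p = 0.000336 and 0.00170). With quantile values they shrank to 0.25 and 0.26 (limma adjusted p = 0.0178 and 0.0210).

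Soat1, which stores cholesterol as esters, was at 30.6 and 27.9 RPKM in wild type, 35.9 and 36.2 in heterozygous and 33.0 and 34.3 in knockout cells. It was highest in heterozygous cells and rose in both comparisons with wild type, by 0.29 ± 0.04 and 0.20 ± 0.04. The knockout call was lost after median scaling (0.11, limma adjusted p = 0.0581). Npc1, the lysosomal membrane protein of cholesterol egress, rose from 7.21 ± 0.165 to 8.57 ± 0.255 RPKM in heterozygous (0.22 ± 0.04, and 0.14 after median scaling) and to 8.04 ± 0.326 in knockout cells. Its knockout call (0.14 ± 0.04, limma adjusted p = 0.0262) was lost in 4 of 13 alternative fits, which were quantile normalization (0.07), median scaling (0.06) and the fits without the first wild-type (0.12) or the second knockout library (0.10).

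Npc2, the soluble partner that hands cholesterol to NPC1, moved the other way. It fell from 98.5 and 97.5 RPKM in wild type to 84.0 and 86.4 in heterozygous and 83.6 and 84.4 in knockout cells, with differences of -0.20 ± 0.02 and -0.22 ± 0.02, which were -0.13 and -0.09 with quantile values and still called. Stard4, a cytosolic sterol carrier and SREBP target, was at 2.55 and 2.19 RPKM in wild type, 1.49 and 1.77 in heterozygous and 2.21 and 2.08 in knockout cells. Heterozygous libraries were lowest and fell by 0.36 on the log2 scale (SE 0.08, limma adjusted p = 0.00628). In knockout its difference was -0.10 ± 0.08 (limma adjusted p = 0.292; -0.32 and called after quantile normalization).

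Macrophages express sterol export and storage genes strongly, and knockout libraries carried more macrophage marker RNA. In bulk RNA, fewer cells of a type and less RNA per cell cannot be told apart. The part of these markers in the knockout values was not tested. In heterozygous cells the marker sum was 7.95 to 8.79 RPKM, beside 9.60 to 10.98 RPKM in wild type. Abca1 was at 1.07 ± 0.0454 RPKM and Soat1 at 36.0 ± 0.226 RPKM in heterozygous cells, both above wild type. The sum over 8 adipocyte markers was 1.84 to 1.90 RPKM in wild type, 2.41 to 2.54 in heterozygous and 5.45 to 5.65 in knockout cells, and 4 of the 8 were higher in both knockout than in both wild-type libraries. Adipoq and Lep of this list were at 0 in every library, while Lpl, a lipase shared with macrophages, went from 0.174 and 0.141 RPKM in wild type to 0.564 and 0.573 in knockout. Fabp4, a lipid carrier of adipocytes and macrophages, was at 1.38 and 1.31 RPKM in wild type, 2.14 and 1.80 in heterozygous and 4.30 and 4.63 in knockout cells.

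**Figure D4:**
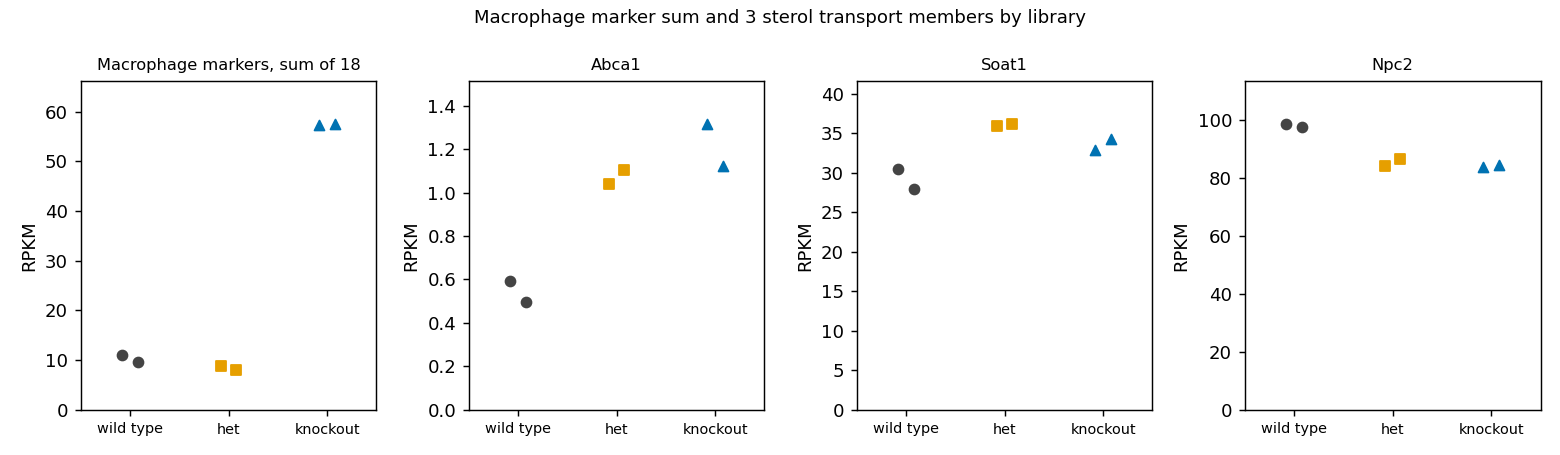
Sum of 18 macrophage markers and RPKM of Abca1, Soat1 and Npc2 in each library, axes from 0. The marker sum is highest in knockout. Abca1 and Soat1 are above wild type in heterozygous and in knockout cells. The part of macrophage RNA in these values was not tested.

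Between knockout and heterozygous cells, 5 members were higher and 7 lower, and 15 did not pass the test. Over all genes tested, 51.8% were called, 26.4% higher and 25.4% lower, so the members' share was below the background for higher calls (18.5%) and near it for lower calls (25.9%). Higher in knockout were Idi1, Pmvk, Stard4, Insig1 and Cyp51, and lower were Dhcr7, Tm7sf2, Sqle, Fdft1, Ebp, Scap and Fdps. Calls of 6 members depended on single libraries, and some of them also on scaling or the fit. Those of Tm7sf2 and Stard4 were lost without the first heterozygous or either knockout library (-0.25 to -0.12 and 0.18 to 0.29). Fdps lost its call without either heterozygous or the second knockout library (-0.10 to -0.07), with quantile values (-0.05, limma adjusted p = 0.216) and without the intensity trend. Stard4 also lost it with quantile values (0.16), both Stard4 and Tm7sf2 without a filter on low values, and Tm7sf2 with only the groups compared in the fit. Cyp51 lost it without the second heterozygous or either knockout library (0.11 to 0.14), Scap without the second heterozygous or first knockout library (-0.13 and -0.10), and Ebp without the second heterozygous or second knockout library (-0.13 and -0.12). Calls were gained by Mvd without the second knockout library (0.31), by Srebf1 without the first heterozygous library (-0.15) and by Srebf2 without the second heterozygous library (0.15). The median log2 difference of the members was -0.02. By mean level, 10 members were lowest in heterozygous cells, 12 in knockout and 5 in wild type, while 19 were highest in wild type.

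Genes of fatty acid synthesis and desaturation, many of which answer to SREBP-1, fell in 12 of 17 tested cases and rose in 2 in knockout, and likewise 12 and 2 in heterozygous cells. The share of lower calls was 70.6% in both, beside 26.6% and 17.1% over all genes tested. The genes named in this and the next lists kept their knockout call under quantile and median scaling, but several of their values shrank. Mid1ip1, an activator of acetyl-CoA carboxylase, was at 20.6 and 22.4 RPKM in wild type, 15.6 and 15.9 in heterozygous and 10.8 and 10.7 in knockout cells. It had the largest fall of this list in knockout, -0.94 ± 0.04. Me1, malic enzyme, which supplies NADPH, fell from 26.1 ± 0.329 to 17.2 ± 0.254 RPKM in knockout, with 22.9 ± 0.0951 in heterozygous cells. Elovl6, a fatty acid elongase, and Lpin1, a phosphatidate phosphatase, rose in knockout by 0.41 ± 0.05 and 0.36 ± 0.05 (0.20 and 0.15 with quantile values).

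A list of isoprenoid branch genes, which use mevalonate products for quinones, dolichol and prenyl groups, also held the sterol enzymes Sc4mol and Lbr. It gave 3 higher and 6 lower of 14 in knockout (21.4% and 42.9%, beside 40.6% and 26.6% over all genes). In heterozygous cells it gave 4 higher and 1 lower (28.6% and 7.14%, beside 35.5% and 17.1%), or 2 and 3 with quantile values and 3 and 3 with median scaling. The gene lower in heterozygous cells was Sc4mol. Sc4mol, the methyl oxidase of the sterol pathway and older name of Msmo1, was at 27.5 and 27.3 RPKM in wild type, 17.4 and 16.9 in heterozygous and 18.6 and 17.0 in knockout cells. It fell in knockout with a log2 difference of -0.60 ± 0.04, as did Rabggta, a subunit of Rab geranylgeranyl transferase (-0.48 ± 0.05). Pggt1b, a subunit of geranylgeranyl transferase I, rose by 0.46 ± 0.05 (0.24 with quantile values) and Fnta, a subunit shared with farnesyl transferase, by 0.18 ± 0.03 (0.10 with median scaling).

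SREBP proteases and sterol-linked ubiquitin ligases gave 5 higher and 3 lower of 12 in knockout, and 5 higher and 2 lower in heterozygous cells. These shares were near the background in knockout (41.7% and 25%, beside 40.6% and 26.6%) and in heterozygous cells (41.7% and 16.7%, beside 35.5% and 17.1%). Heterozygous counts were 2 and 2 with quantile values and 4 and 4 with median scaling, and knockout counts 5 and 4, and 4 and 5. Mbtps2, the site-2 protease that frees active SREBP, rose from 1.62 ± 0.174 to 2.63 ± 0.0424 RPKM in knockout, with 2.92 ± 0.298 in heterozygous cells; the knockout difference was 0.47 ± 0.07, or 0.26 with quantile values. The ligase gene Rnf139 rose by 0.51 ± 0.07 (0.32 with quantile values). Ube2g2, a ubiquitin-conjugating enzyme, fell from 42.2 ± 1.57 to 27.5 ± 0.594 RPKM in knockout, with 34.8 ± 2.01 in heterozygous cells.

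Lipoprotein uptake and sterol transport genes outside the set gave 3 higher and 6 lower of 15 in knockout (20% and 40%, beside 40.6% and 26.6% over all genes). In heterozygous cells they gave 6 higher and 0 lower (40% and 0%, beside 35.5% and 17.1%). Those heterozygous counts were 4 and 1 after quantile and 3 and 2 after median scaling. Osbpl8, a lipid transfer protein, and Cav1, the caveolin that binds cholesterol, rose in knockout by 0.53 ± 0.06 (0.31 with quantile values) and 0.25 ± 0.02 (0.16 with median scaling), while Stard3nl and the lysosomal receptor gene Scarb2 fell (-0.53 ± 0.04 and -0.39 ± 0.06). Of the LXR and oxysterol genes, 3 were higher and 1 lower of 7 in each comparison with wild type, which for higher calls is 42.9% beside 40.6% over all genes in knockout and 35.5% in heterozygous cells. Cyp7b1, an oxysterol hydroxylase, was at 0.522 and 0.360 RPKM in wild type, 1.04 and 0.839 in heterozygous and 2.07 and 2.03 in knockout cells, and passed the filter through the knockout libraries. The LXR targets Mylip, a ligase that limits lipoprotein uptake, and Abcg1, a sterol exporter, moved apart in knockout (0.38 ± 0.06 and -0.31 ± 0.05, or 0.17 and -0.52 with quantile values).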

How the data were processed

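RNA-seq libraries of 3 Hotair genotypes (6 libraries) were analysed, and the 6 ChIP-seq samples were not analysed here. The submitters' processing notes name TopHat and the mm9 genome, and the table's columns are named after coverage tracks, with 1 row for each symbol. The header gives no unit. The deposited values were identified as RPKM made by the authors. In the first wild-type library, low values times single-exon gene lengths met at 1 step (59 genes), the worth of 1 read. For each other library, that step was multiplied by the most common ratio of its low values to those of the first wild-type library. These steps gave the depths. Read equivalents used a 74-base read and the smallest whole gene length that made aligned bases whole (tolerance 0.002 bases), so they are lower limits. Set against counting noise computed from them, the robust variance between replicates was 0.813, 0.876 and 0.873 times that noise in wild type, heterozygous and knockout cells, and the mean squared z, which a few outlying genes can raise, was 1.26, 1.45 and 1.71. Since no pair stood apart from the others and the noise is an upper limit, each pair was kept as 2 libraries, as labelled; whether they are separate biological samples was not settled. For counting rules, annotation version and strand use, the sources used here state nothing.

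Genes at 1 RPKM or more in 2 of 6 libraries were tested as log2(RPKM + 1) with limma 3.58.1 in R 4.3.3 (3 group means, 3 residual degrees of freedom, a variance trend with intensity, two-sided, Benjamini-Hochberg over all 10897 genes, threshold 0.05). The script was tested on simulated data. Errors are SD for RPKM and SE for log2 differences. Alternatives were pseudocounts of 0.1 and 5, no filter and a filter at 5 RPKM, quantile and median scaling, no intensity trend, only the groups compared, a replicate block and leaving out each library. Members and lists were chosen with earlier results of these data known. All members are named, and for each related list the called genes with the 2 largest rises and falls in knockout against wild type without overlap of replicates, of which 1 is not reported here. The planned rule for printed promoters (TCACNCCA in a called synthesis member) selected 0.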

Additional observations from a re-analysis of the deposited data

How the results depend on the processing

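No member reversed direction with a call in any alternative fit (13 per comparison, 12 for members under 5 RPKM). In knockout against wild type, median scaling gave 3 members higher and a median log2 difference of -0.34, and a filter at 5 RPKM left 4754 genes called because fewer genes were tested (6788). In heterozygous against wild type the median was -0.33 and -0.19 with pseudocounts of 0.1 and 5, -0.34 with quantile-normalized values and -0.35 with median scaling, and it lay between -0.30 and -0.23 when each library was left out. In knockout against heterozygous, a filter at 5 RPKM gave 3 members higher (22 members tested), and leaving out each library gave 3 to 5 higher and 4 to 6 lower, lowest for higher calls without the first knockout library and for lower calls without the second heterozygous or second knockout library. Where a library left a genotype with 1, that library was assumed to vary like the others. The cause of the other shifts was not tested. Same-numbered libraries share only a number: their deviations correlated across genes at -0.09, -0.06 and 0.06, and the replicate block gave 5 higher and 15 lower members in knockout, 3 and 20 in heterozygous, and 6 and 7 between knockout and heterozygous, with 7253, 5564 and 5448 genes called in all. Abca1 in wild type and Pmvk in heterozygous cells had the lowest read equivalents, down to 71.1 and 74.5. These are lower limits, so which members rested on the fewest reads is not settled.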
